A study of Mus musculus with 24 samples.

Results

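Elastic fibres give skin, vessels and lung their recoil. Fibroblasts first assemble microfibrils from fibrillins, tropoelastin is then deposited on that scaffold with the help of fibulins, and lysyl oxidases cross-link the elastin into an insoluble core. Latent TGFβ-binding proteins sit on the same microfibrils and hold the growth factor TGFβ in store. Chromatin at 10 genes of this system was described here, out of 22367 protein-coding genes annotated on mm9. They were the fibrillins Fbn1 and Fbn2, elastin (Eln), the fibulins Fbln1, Fbln2, Fbln5 and Efemp2 (fibulin-4), and lysyl oxidase (Lox). Ltbp1 and Ltbp2, of the latent TGFβ-binding protein family, completed the set. The genes were chosen by name and function. A PRRX1 site upstream of Fbn1 was already known from these lists when they were chosen, so it is given as a description. Each gene was examined with 50 kb on each side of its body, and these windows measured 108 to 487 kb (median 177 kb, against 115 kb over all genes).

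The data were ChIP-seq peak lists of the homeodomain factor PRRX1 and of 2 histone marks, H3K4me3 (found at active promoters) and H3K27ac (found at active promoters and enhancers). The cultures were of 3 kinds of mouse fibroblast, all immortalised with HPV E6/E7: embryonic fibroblasts (MEF, C57BL/6, embryos of day 10 to 13), cancer-associated fibroblasts of MMTV-PyMT breast tumours (MMTV-CAF, FVB/NJ, hereafter CAF), and fibroblasts of dorsal wounds at day 10 (wound fibroblasts, C57BL/6). SG cultures had Prrx1 deleted by CRISPR/Cas9 with a guide RNA, and sgNS was the control guide of the WT cultures. MEF KI, with the genotype KI_PRRX1, was read as the cells from Prrx1tm1Jfm mutant embryos, in which lacZ is inserted into Prrx1. The sample labels give C57BL/6 for it too, but the protocol names a 129S line, which the study lists as backcrossed, so that any remaining strain difference cannot be told apart from genotype between MEF WT and KI. The KI and SG cultures are together called mutant. There were 7 H3K4me3 lists, 7 H3K27ac lists and 3 PRRX1 lists, the last from WT cultures only. Each group had 1 list, so there is no replicate check, no p-value is given, and every difference is between single lists. The MEF KI and MEF SG comparisons share the MEF WT list.

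The lists differed in size and strength, and the read depth behind them is unknown. H3K27ac lists held 29325 (MEF KI) to 61603 (CAF SG) summits, H3K4me3 lists 13125 (MEF KI) to 29166 (CAF SG) regions, and PRRX1 lists 3048 (MEF), 8000 (CAF) and 5698 (wound) summits. The median −log10 p in MEF KI was the lowest of the MEF lists for both marks. Of 10 fibroblast markers, 6 (MEF KI) to 10 (MEF WT) had H3K4me3 over a transcription start site (TSS), whereas none of 6 leukocyte and none of 4 muscle markers had it in any list, and at most 1 of 6 epithelial (Cdh1) and 1 of 4 endothelial markers (Kdr) did. Prrx1 itself had an H3K4me3 region in every mutant list, 4558 to 15484 bp wide, and the lists do not measure PRRX1 protein.

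Of the 10 genes, PRRX1 summits were most numerous at Fbn1, which encodes fibrillin-1, the main microfibril protein and the gene mutated in Marfan syndrome. On chromosome 2 the gene (ENSMUSG00000027204.7, minus strand) runs from 125126330 to 125333729. Its window held 3 PRRX1 summits in MEF, 13 in CAF and 8 in wound fibroblasts, more than 99.3%, 99.9% and 99.8% of all genes held, in a window of 307400 bp. The strongest of these lay 41.4 kb upstream of the most upstream TSS, between genes, and the 3 summits spanned 7 bp. The site had a −log10 p of 30.9 in MEF (rank 88 of 3048), 58.0 in CAF (rank 22 of 8000) and 32.2 in wound fibroblasts (rank 39 of 5698). A summit 32.8 kb upstream was nearly as strong in wound fibroblasts (26.7, rank 68) and had no PRRX1 summit within 500 bp in the other types. In the body of Fbn1, an intronic site 85000 to 85010 bp downstream of the TSS was listed in MEF (9.28) and wound fibroblasts (8.31).

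The sequence within 100 bp of the shared summit upstream of Fbn1 is shown because it is 1 of 2 sites at these genes that all 3 fibroblast types held. It was read from NCBIM37 (mm9) on the minus strand, the strand of the gene, at chr2:125375010-125375210. Capitals mark TGANTCA, the AP-1 motif. It was sought on both strands together with TAATTA, a sequence bound by many homeodomain factors, and each motif was counted on its own.
Fbn1, 41.4 kb upstream: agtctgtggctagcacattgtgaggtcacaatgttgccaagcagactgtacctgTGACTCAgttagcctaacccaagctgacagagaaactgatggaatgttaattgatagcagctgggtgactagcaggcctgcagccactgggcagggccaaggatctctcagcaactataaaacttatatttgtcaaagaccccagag

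The window held 1 TGANTCA and no exact TAATTA. Only exact matches were counted, so near matches, such as taattg in the printed stretch, were left out. Over all PRRX1 summits, TAATTA occurred within 100 bp of 69.1% in MEF, 35.5% in CAF and 41.9% in wound fibroblasts, and TGANTCA near 12.9%, 18.2% and 13.0%. Around WT H3K27ac summits the shares were 1.79% to 2.78% for TAATTA and 3.80% to 4.98% for TGANTCA. At the elastic fibre genes, leaving out Lox, whose summits were not searched, TAATTA was found near 3 of 6 PRRX1 summits in MEF, 7 of 35 in CAF and 7 of 17 in wound fibroblasts. TGANTCA was found near 2 of 6, 7 of 35 and 2 of 17.

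The other gene with a PRRX1 site in all 3 types was Fbln5, whose product tethers tropoelastin to cells and microfibrils. On chromosome 12 it runs from 102984775 to 103057265 (ENSMUSG00000021186.8, minus strand). Its site lay in the UTR, 50 to 108 bp inside the TSS, with a −log10 p of 7.19 in MEF (rank 1991), 27.1 in CAF (rank 179) and 12.2 in wound fibroblasts (rank 531). Neither motif occurred within 100 bp of the 3 summits. These were the only PRRX1 summits in the Fbln5 window. Leaving out Fbn1, whose site was known when the genes were chosen, a site of all 3 types was found at 1 of 9 genes, where 3.80% of all genes held one. Only the Fbn1 site had a −log10 p of at least 10 in every type.

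Ltbp1, which anchors latent TGFβ to microfibrils, held PRRX1 summits in all 3 types but at no site common to them. Its body (ENSMUSG00000001870.8, plus strand) spans 75404908 to 75791852 on chromosome 17. A site 38.5 kb upstream was listed in MEF (7.86) and wound fibroblasts (13.8, rank 370). A second site, at the downstream promoter 173 kb into the gene, was listed in CAF (14.5, rank 669) and wound fibroblasts (5.39), 141 to 188 bp before that TSS. Another, in an intron 248 kb downstream, was again listed in MEF (7.43) and wound fibroblasts (7.19). Beside Fbn1, PRRX1 summits of all 3 types fell in 2 of 9 windows (Fbln5 and Ltbp1), where 7.73% of all genes, whose windows had the shorter median given above, held them. Within 50 kb of the most upstream TSS it was 1 of 9 (Fbln5), against 5.28%.

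The CAF list is the longest of the PRRX1 lists, and most summits at the other genes were of that type, except at Fbln2. Fbln1, a fibulin of basement membranes and elastic fibres, held 5 summits in CAF, of which the strongest (15.6, rank 573) was intronic, 39.6 kb downstream of the TSS, and another (6.41) lay 3 bp before the TSS. One further summit at Fbln1 was listed in wound fibroblasts (5.39). Fbln2, which binds elastin and fibrillin, held a site 9.44 to 9.63 kb upstream that was listed in CAF (5.88) and wound fibroblasts (5.39), and wound summits 8.85 kb upstream (3.79) and 74.3 kb downstream of the TSS (4.58). Efemp2, which brings lysyl oxidase to tropoelastin, held a site 120 to 166 bp inside its TSS in the same pair of types (6.22 and 7.30).

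Many of the summits were nearer to another gene. The nearest TSS was that of the gene of the window for 4 of 6 summits in MEF, 18 of 37 in CAF and 12 of 18 in wound fibroblasts. In the Fbn1 window the nearest TSS was that of Dut or Gm9913 for every summit but those upstream of Fbn1. A CAF summit counted at Fbln1 lay 69 bp from the TSS of Atxn10. The lone summit in the window of Eln, the elastin gene itself, lay 58.0 kb downstream of its TSS in CAF (−log10 p 8) and 687 bp from the TSS of Limk1, a kinase gene. Of the 7 CAF summits around Efemp2, 1 lay 80 bp from the TSS of Ccdc85b and 1 lay 358 bp from that of Mus81. Ltbp2, a microfibril protein that does not bind TGFβ, had 1 summit, 5.24 kb upstream in CAF (7.82). Lox, the cross-linking enzyme, had summits 7.11 kb (6.24) and 34.3 kb (11.3) upstream in CAF and an intronic summit in wound fibroblasts (4.5). Fbn2, the fibrillin that is most used before birth, had none in any type.

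In all, the 10 windows held 6 summits in MEF (at 3 genes), 37 in CAF (at 9 genes) and 18 in wound fibroblasts (at 7 genes), where 15.0%, 39.9% and 32.2% of all genes held at least 1 in windows of shorter median length. Without Fbn1, whose site was known beforehand, the genes were 2 of 9 in MEF, 8 in CAF and 6 in wound fibroblasts, with 3, 24 and 10 summits. Chained within 500 bp they formed 48 sites, of which 37 were of 1 type, 9 of 2 types and 2 of 3 types. The median −log10 p was 7.64, 6.60 and 7.25, against 8.41, 6.94 and 6.32 over all PRRX1 summits. The PRRX1 lists reach down to a −log10 p of 3, and 1, 3 and 4 of the summits at these genes lay below 5. In a WT H3K4me3 region of the same culture lay 1 of 6 (16.7%, against 7.02% of all PRRX1 summits), 17 of 37 (45.9%, against 44.7%) and 4 of 18 (22.2%, against 28.2%).

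**Figure D1:**
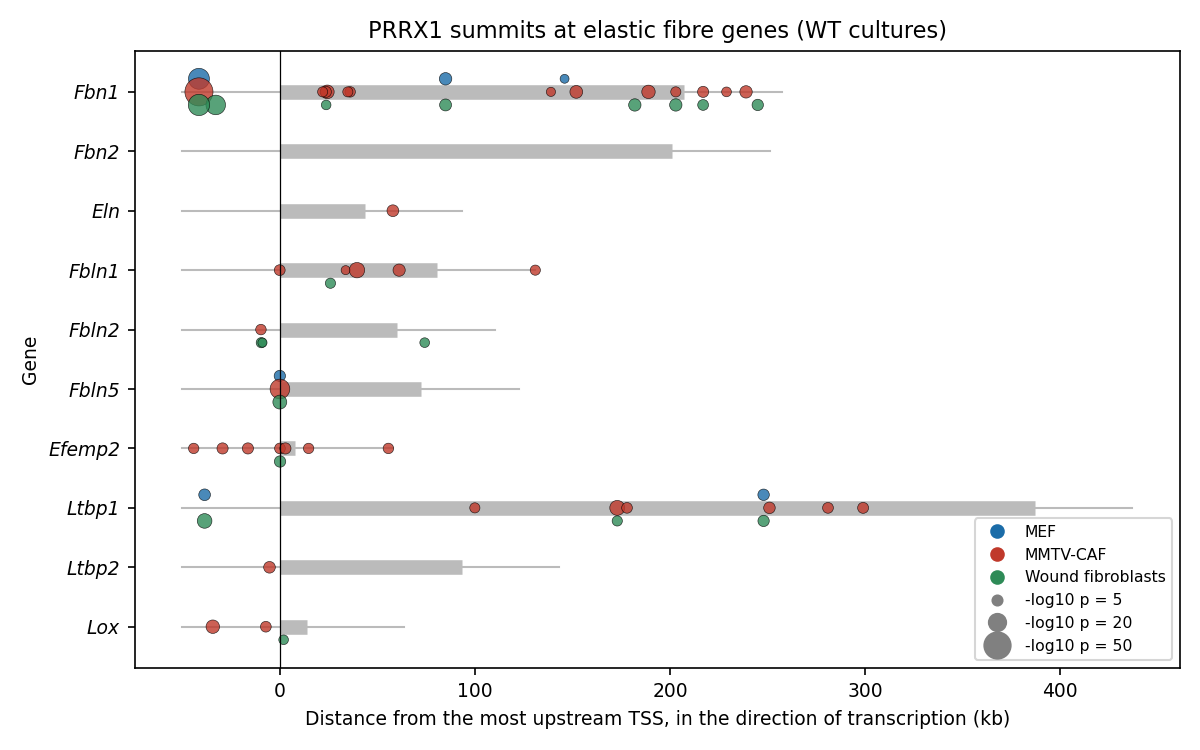
PRRX1 summits at the 10 genes in the 3 WT cultures, by distance from the most upstream TSS in kb. Grey bars are gene bodies, thin lines the 50 kb on each side, and the area of a point grows with its −log10 p. The 3 large points 41.4 kb upstream of Fbn1 and the 3 points at the Fbln5 TSS are the sites of all 3 types, and Fbn2 has no point.

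The best-ranked PRRX1 summit of each further gene is shown to let its sequence be compared with the Fbn1 site. For Fbln5 and Efemp2 these windows lay in exons and are not printed, and the Lox summits are not shown. Each stretch is 100 bp on either side of the summit in NCBIM37 (mm9), on the strand of the gene, with TAATTA and TGANTCA in capitals: Eln at chr5:135165047-135165247 (minus strand), Fbln1 at chr15:85075841-85076041 (plus), Fbln2 at chr6:91152905-91153105 (plus), Ltbp1 at chr17:75366329-75366529 (plus) and Ltbp2 at chr12:86222618-86222818 (minus).
Eln, CAF: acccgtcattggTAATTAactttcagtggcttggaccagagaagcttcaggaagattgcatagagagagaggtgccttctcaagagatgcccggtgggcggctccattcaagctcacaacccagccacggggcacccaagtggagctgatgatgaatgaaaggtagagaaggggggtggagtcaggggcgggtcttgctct
Fbln1, CAF: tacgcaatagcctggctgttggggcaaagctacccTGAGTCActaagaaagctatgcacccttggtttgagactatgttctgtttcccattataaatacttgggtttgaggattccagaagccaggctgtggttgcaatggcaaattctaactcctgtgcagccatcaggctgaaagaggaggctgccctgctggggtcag
Fbln2, wound: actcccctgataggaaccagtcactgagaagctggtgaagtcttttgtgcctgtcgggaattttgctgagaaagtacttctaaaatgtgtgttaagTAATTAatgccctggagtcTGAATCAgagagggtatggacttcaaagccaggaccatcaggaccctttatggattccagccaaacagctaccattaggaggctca
Ltbp1, wound: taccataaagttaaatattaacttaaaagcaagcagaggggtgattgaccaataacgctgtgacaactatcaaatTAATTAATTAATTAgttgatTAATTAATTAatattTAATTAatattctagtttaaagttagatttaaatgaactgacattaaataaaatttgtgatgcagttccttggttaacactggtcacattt
Ltbp2, CAF: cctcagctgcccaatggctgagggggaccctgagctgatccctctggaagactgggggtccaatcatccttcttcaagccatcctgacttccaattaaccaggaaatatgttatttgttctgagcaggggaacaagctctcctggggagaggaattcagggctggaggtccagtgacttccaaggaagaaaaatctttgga

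The Ltbp1 stretch held 6 copies of TAATTA, some of which overlap each other, and no TGANTCA. Fbln2 held 1 of each, Eln 1 TAATTA, Fbln1 1 TGANTCA, and Ltbp2 neither as an exact match. A match in these letters is a description and not a binding site.

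H3K27ac near the PRRX1 summits was then examined, with a distance of 500 bp counted as together. A WT H3K27ac summit of the same culture lay within 500 bp of 3 of 6 PRRX1 summits at these genes in MEF (50.0%, Wilson 95% interval 18.8% to 81.2%, against 20.5% of all PRRX1 summits), 21 of 37 in CAF (56.8%, 40.9% to 71.3%, against 45.4%) and 7 of 18 in wound fibroblasts (38.9%, 20.3% to 61.4%, against 33.2%). In each type the interval, which covers counting error only, included the share over all summits. Of the PRRX1 summits with WT H3K27ac, the mark was also listed in 0 of 3 in MEF KI (38.9% of all such PRRX1 summits), 1 of 3 in MEF SG (52.3%), 15 of 21 in CAF SG (72.9%) and 2 of 7 in wound SG (74.1%). The wound share of 28.6% had an interval of 8.22% to 64.1%, which lay below 74.1%.

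The shared sites of Fbn1 and Fbln5 differed in this. At Fbn1, 41.4 kb upstream, an H3K27ac summit lay 303 bp away in MEF WT (−log10 p 10.7) and 263 bp away in CAF WT (21.4). The nearest summit was 18025 bp away in MEF KI, 17993 bp in MEF SG and 4408 bp in CAF SG. In wound fibroblasts the mark was not listed near the site in either genotype, with the nearest summits 18444 bp (WT) and 18955 bp (SG) away. The site thus carried H3K27ac in 2 of 3 WT lists and in none of the 4 KI and SG lists. At the Fbln5 TSS, H3K27ac was listed 89 to 247 bp from the site in every list but MEF KI, where the nearest summit was 32.7 kb away. The −log10 p there was 7.76 in MEF WT, 56.4 in MEF SG, 40.6 and 35.5 in the CAF pair (WT, SG), and 16.3 and 10.6 in the wound pair (WT, SG).

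The promoters of the 10 genes were read next from H3K4me3, as the width of the widest region over any annotated TSS. All 10 were marked in MEF WT, 8 in CAF WT and 9 in wound WT, where 53.1%, 52.4% and 54.7% of all genes were. Among the KI and SG lists, 7 genes were marked in MEF KI (41.4% of all genes), 8 in MEF SG (51.4%), 8 in CAF SG (52.9%) and 10 in wound SG (55.2%). With regions of a −log10 p of at least 10, MEF KI had 2 of 10, against 25.8% of all genes, and so turned from above the share of all genes to below it. Regions over 4 kb, here called broad, were found at 1 gene in MEF WT (5.02% of all genes), 0 in MEF KI (1.49%), 1 in MEF SG (3.59%), 6 each in CAF WT (15.1%) and SG (12.8%), 2 in wound WT (4.83%) and 4 in wound SG (8.58%). Broad regions were thus most numerous in CAF, where the median width over all marked genes was also highest (3040 bp in WT, against 2240 bp in MEF WT and 2070 bp in wound WT).

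The 2 fibrillins behaved differently. At Fbn1 the region was 2821, 2380 and 2202 bp wide in the MEF lists (WT, KI, SG), with a fold enrichment over input of 4.74, 3.35 and 6.02. It measured 5655 and 4473 bp in the CAF pair (WT, SG) (fold 11.0 and 13.9) and 3181 and 3232 bp in the wound pair (WT, SG) (fold 10.1 and 8.87). Fbn1 was thus marked in every list. The regions began 0.777 to 1.63 kb downstream of the most upstream TSS and covered the annotated starts 1.61 and 1.92 kb downstream of it, except in MEF KI, where only the latter was covered.

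Fbn2 (ENSMUSG00000024598.7, minus strand of chromosome 18, 58168277 to 58369580) had a region of 1645 bp in MEF WT, 1451 bp in MEF KI, 1239 bp in wound WT and 1903 bp in wound SG. It had no region in MEF SG or in either CAF list, and the nearest region there was at least 232776 bp from its TSS. Fbn2 was thus unmarked in both CAF lists.

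Elastin was marked in the fewest lists. Eln (ENSMUSG00000029675.9, minus strand of chromosome 5, 135179651 to 135223111) had 825 bp of H3K4me3 in MEF WT, with a fold of 2.31 and a −log10 p of 5.60, and 247 bp in wound SG (3.22 and 3.63). No region covered its TSS in the 5 other lists, and the nearest one lay 57314 to 57750 bp away. No H3K27ac summit lay in the body of Eln in any list.

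Among the fibulins, Fbln2 had the widest promoter region in every list but CAF SG, where that of Efemp2 was wider. Its widths were 3882, 2894 and 3340 bp in the MEF lists (WT, KI, SG), 9480 and 4452 bp in the CAF pair (WT, SG), and 5461 and 6760 bp in the wound pair (WT, SG). It ranked 289 among all genes in wound WT and 200 in CAF WT. The gene (ENSMUSG00000064080.6, plus strand) spans 91162449 to 91222534 on chromosome 6. Efemp2 (ENSMUSG00000024909.8, plus strand of chromosome 19, 5473973 to 5481853) had regions of 2365 bp (MEF KI) to 5120 bp (CAF WT) and was marked in every list. Fbln5 had 1212 bp (wound SG) to 2713 bp (CAF WT), again in every list. Fbln1 (ENSMUSG00000006369.8, plus strand of chromosome 15, 85036379 to 85116965) had 1175 bp (wound WT) to 3215 bp (CAF SG), and in MEF KI its region began 186 bp away from the TSS and did not cover it.

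Ltbp1 has several promoters in the annotation, and both the upstream one and the one 173 kb downstream were marked. The upstream promoter had 2011, 2177 and 1668 bp in the MEF lists (WT, KI, SG), 1924 and 2079 bp in CAF, and 1685 and 1768 bp in wound fibroblasts (WT, then SG). The downstream promoter, where PRRX1 was listed in CAF and wound fibroblasts, had wider regions of 3189 and 2532 bp in MEF WT and SG, 4237 and 4760 bp in CAF and 4142 and 5187 bp in wound fibroblasts. In MEF KI no region covered the downstream start. The upstream regions thus stayed between 1668 and 2177 bp in all 7 lists.

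Ltbp2 (ENSMUSG00000002020.8, minus strand of chromosome 12, 86124162 to 86217482) varied between cultures. Its region was 3733 bp wide in MEF WT, absent in MEF KI and 2173 bp in MEF SG. In CAF it was 10202 bp in WT and 9936 bp in SG, rank 142 and rank 94 among all genes, and in wound fibroblasts 1406 bp in WT and 4082 bp in SG. The CAF regions began at -6493 bp (WT) and -5506 bp (SG) from the TSS and so covered the PRRX1 summit 5.24 kb upstream. Lox (ENSMUSG00000024529.6, minus strand of chromosome 18, 52675723 to 52689521) was marked in every list, by 4654, 3731 and 4569 bp in the MEF lists (WT, KI, SG), 6857 and 5315 bp in CAF, and 3632 and 4409 bp in wound fibroblasts.

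**Figure D2:**
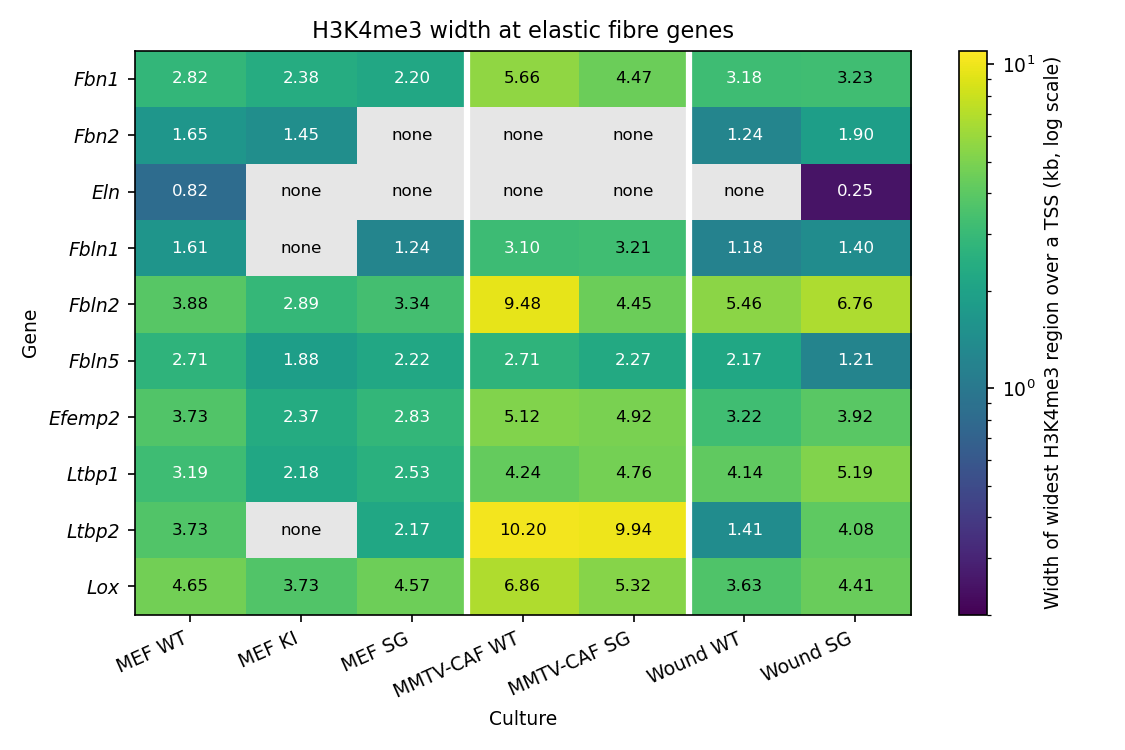
Width in kb of the widest H3K4me3 region over any annotated TSS of each gene, in each of the 7 cultures. Colour follows a log scale, grey cells have no region over a TSS, and white lines part the fibroblast types. The widest cells are Ltbp2 in both CAF lists and Fbln2 in CAF WT, and Eln is grey in 5 of 7 lists.

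WT and Prrx1 mutant widths were compared where both lists had a region, with a change of 1.5-fold called. In MEF KI, 7 of 7 genes were narrower than in WT (median log2 ratio -0.42), but so were 93.2% of all genes (median -0.33). The Ltbp1 value among them sets the downstream promoter of WT (3189 bp) against the upstream one of KI (2177 bp), and at the upstream promoter alone the width was 2011 bp in WT. In MEF SG, 8 of 8 were narrower (median -0.35), where 75.6% of all genes were (median -0.09). In CAF SG, 6 of 8 were narrower (median -0.16, against 59.4% and a median of -0.05 over all genes), and in wound SG, 8 of 9 were wider (0.29, against 77.0% and 0.18). The direction at the elastic fibre genes was in each comparison that of the genome, and the whole-list shift was largest in MEF KI and in wound SG.

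Few genes passed 1.5-fold, and none was called wider in MEF KI (0.544% of all genes), MEF SG (0.605%) or CAF SG (4.95%). In MEF KI only Efemp2 was narrower by that much (log2 ratio -0.66, where 25.0% of all genes were called narrower), and Eln, Fbln1 and Ltbp2, 3 of the 10 marked in WT, had no region over a TSS (22.6% of all genes marked in WT). In MEF SG only Ltbp2 was called narrower (-0.78, against 5.04% of all genes), and Fbn2 and Eln had none (2 of 10, against 4.04%). No member of the set lost its region in CAF SG (2.67% of all genes marked in WT) or in wound SG (2.43%). In CAF SG only Fbln2 was called narrower (-1.09, against 5.87%). Counted as bases covered within 5 kb of the TSS, which adds up neighbouring regions, Fbln2 changed from 8127 to 5703 bp (-0.51). In wound SG, Fbln5 was called narrower (-0.84, against 1.73%), and Fbn2 (0.62) and Ltbp2 (1.54) were called wider (against 11.6%).

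Active elements around the genes were counted as H3K27ac summits per 100 kb of window. The median over the 10 genes was 5.79 in MEF WT, 8.56 in CAF WT and 5.10 in wound WT, against 2.59, 2.83 and 1.88 over all genes. In the mutant lists it was 4.60 (MEF KI), 4.96 (MEF SG), 8.53 (CAF SG) and 5.52 (wound SG) (all genes 1.64, 2.47, 3.35 and 2.60). In the 7 lists, 6 to 9 of the 10 genes lay above the median of all genes. At least 1 summit lay in the window of 9 genes in MEF WT (75.9% of all genes), 9 in MEF KI (69.8%), 9 in MEF SG (75.8%), 9 in CAF WT (75.2%), 9 in CAF SG (76.2%), 8 in wound WT (72.2%) and 10 in wound SG (76.7%). Within 1 kb of the most upstream TSS a summit was found at 6 genes in MEF WT (46.0%), 4 in KI (35.7%), 6 in SG (47.6%), 7 in CAF WT (46.0%), 7 in CAF SG (48.0%), 5 in wound WT (44.9%) and 6 in wound SG (46.7%). In total the windows held 132, 100 and 126 summits in the MEF lists (WT, KI, SG), 222 and 209 in the CAF pair (WT, SG), and 125 and 120 in the wound pair (WT, SG). The lower SG totals rested on Fbn1: without it they were 110 against 104 in MEF, 143 against 138 in CAF and 107 against 95 in wound fibroblasts, above WT in each. With lists of equal size the order turned in MEF KI (100 against 86 in WT) and CAF SG (111 against 102). It did not turn in MEF SG (81 against 86) or wound SG (81 against 104).

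Efemp2 had the densest window in 6 of 7 lists (Fbn1 in CAF WT), with 17.6 to 25.0 summits per 100 kb, but its window also covers 9 other protein-coding genes, and only 1 to 4 of its summits lay in its own body. Fbn2 lay at the other end, with 1 summit in MEF KI, 3 in wound SG and none elsewhere. Lox, which had 1 or 2 summits within 1 kb of its TSS in every list, held 11, 15 and 14 summits in the MEF lists (WT, KI, SG), 17 and 21 in CAF, and 12 and 7 in wound fibroblasts. Its strongest summit in MEF SG, 808 bp inside the TSS, had a −log10 p of 130 and ranked 163 in that list. Ltbp1 held 22 to 30 summits in each list. Ltbp2 held 21, 9 and 28 in the MEF lists (WT, KI, SG), 25 and 31 in CAF, and 11 and 20 in wound fibroblasts. Fbln2 held 10, 11 and 8, then 15 and 14, then 21 and 12 in the same order. Fbln1 held 4, 1 and 5, then 14 and 15, then 0 and 3. Lox, Ltbp1, Ltbp2, Fbln2 and Fbln1 thus held more summits than WT in some mutant lists and fewer in others, while Fbln5 (7, 2 and 7, then 7 and 2, then 3 and 3) had more in none.

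**Figure D3:**
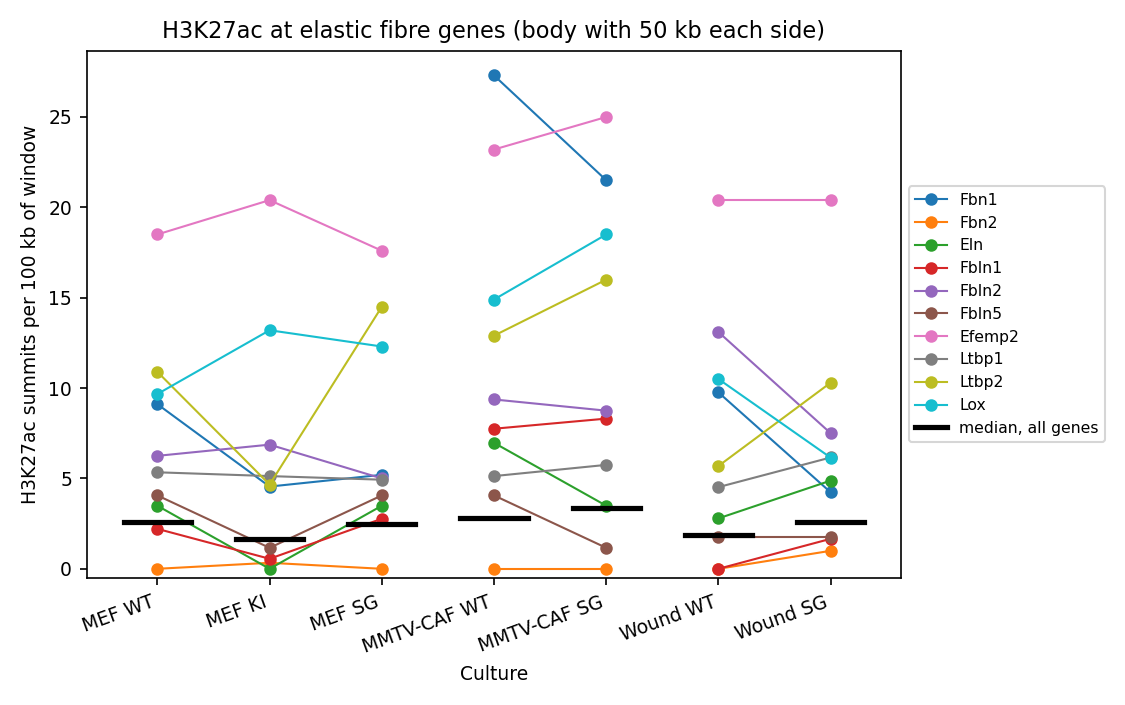
H3K27ac summits per 100 kb of window (gene body with 50 kb on each side) for each gene in each culture. Lines join cultures of the same fibroblast type, and black bars are the median over all protein-coding genes. Fbn1 stands at 27.3 in CAF WT and is lower in the mutant culture of every type, while Efemp2 stays at or above 17.6.

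Fbn1 had fewer H3K27ac summits than WT in every mutant list. It held 28, 14 and 16 in the MEF lists (WT, KI, SG), 84 and 66 in the CAF pair (WT, SG), and 30 and 13 in the wound pair (WT, SG). In the same order, the number in the upstream 50 kb was 5, 3 and 3 in MEF, 9 and 5 in CAF and 2 and 2 in wound fibroblasts, in the body 16, 9 and 9, then 55 and 46, then 19 and 7, and in the downstream 50 kb 7, 2 and 4, then 20 and 15, then 9 and 4. The body and the downstream side thus held fewer in every mutant list. Of the 6 genes here with at least 10 summits in every WT list, Fbn1 was the only one lower in all 4 mutant lists. Among all 1861 genes with at least 10, 7.25% were. The genes with fewer summits were 6 of 10 in MEF KI (50.4% of all genes), 4 in MEF SG (28.0%), 4 in CAF SG (22.2%) and 3 in wound SG (19.0%). All genes here include those with no WT summit, which could not hold fewer. In the same order, 4, 3, 5 and 5 of the 10 genes held more summits than WT.

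**Figure D4:**
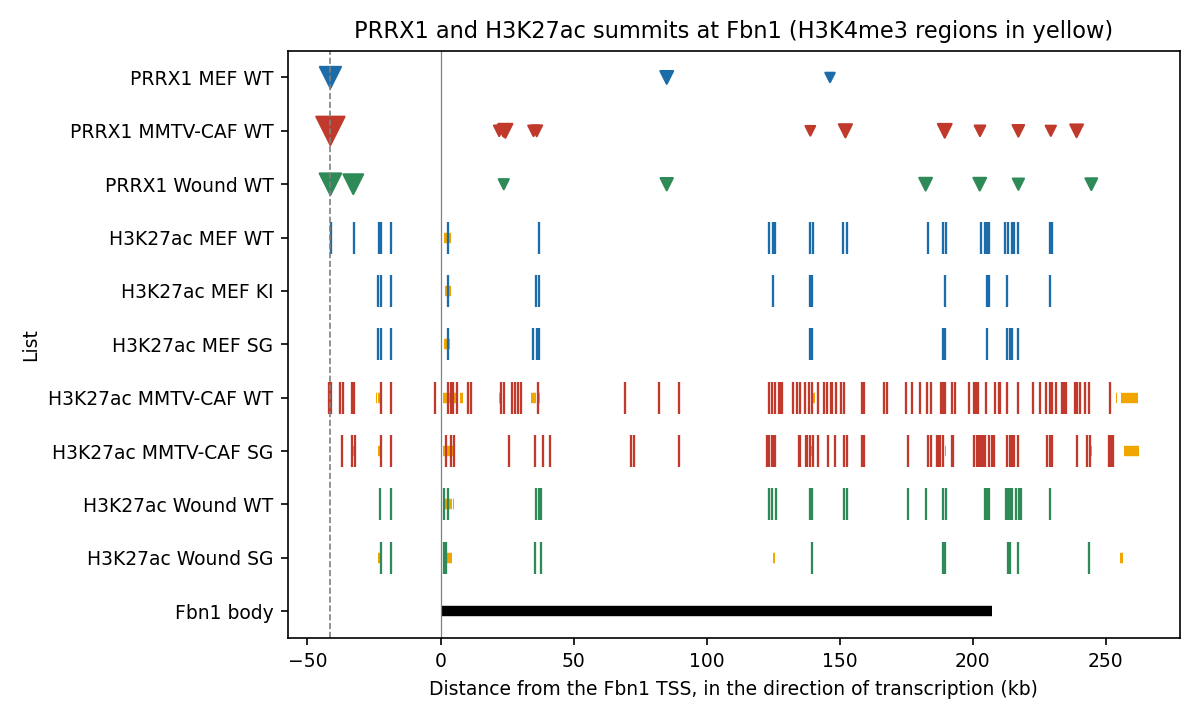
PRRX1 summits (triangles, area by −log10 p) and H3K27ac summits (ticks) at Fbn1 by distance from its most upstream TSS in kb, with H3K4me3 regions in yellow and the gene body in black. The dashed line marks the PRRX1 site 41.4 kb upstream. H3K27ac ticks lie at that line in MEF WT and CAF WT only, and the wound list has 30 ticks in WT and 13 in SG.

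Position by position, WT H3K27ac summits were followed into the mutant list of the same type. At the 10 genes, 67 of 132 WT summits in MEF had a summit within 500 bp in KI (50.8%, 42.3% to 59.1%), and 89 of 132 in SG (67.4%, 59.0% to 74.8%). Over all WT summits these shares were 44.3% and 68.2%, and both lay within the intervals. In CAF, 131 of 222 were retained (59.0%, 52.4% to 65.3%, against 63.9%). In wound fibroblasts, 59 of 125 were retained (47.2%, 38.7% to 55.9%), where 67.7% of all WT summits were. The wound share at these genes was thus under that of the whole list, which lay outside the interval. The WT summits at these genes were also weaker there, with a median −log10 p of 12.6 against 15.2 in the whole list. With summits of at least 10 in both lists the shares were 49.4% and 70.9%. Conversely, summits of the mutant list with none in WT made up 35 of 100 in MEF KI (30.5% of that whole list), 37 of 126 in MEF SG (29.4%, against 30.0%), 79 of 209 in CAF SG (37.8%, against 43.6%) and 62 of 120 in wound SG (51.7%, against 48.4%).

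By gene, wound retention was 33.3% at Fbn1 (10 of 30), 28.6% at Fbln2 (6 of 21) and 50.0% at Lox (6 of 12). It was 54.5% at Ltbp2 (6 of 11), 59.1% at Ltbp1 (13 of 22) and 63.6% at Efemp2 (14 of 22). At genes with few summits it was 50.0% at Eln (2 of 4) and 66.7% at Fbln5 (2 of 3). Fbn2 and Fbln1 had no wound WT summit. Of the 66 summits that were not retained, 20 lay at Fbn1 and 15 at Fbln2. Without Fbn1 the wound share was 51.6%. At Fbn1 the share was similar in the other types, at 46.4% in both MEF KI and MEF SG (29.5% to 64.2%) and 45.2% in CAF SG (35.0% to 55.9%). The intervals for Fbn1 lay below the share of all WT summits in MEF SG, CAF SG and wound SG, and included it in MEF KI. The WT summits at Fbn1 were also weaker than the whole list, with a median −log10 p of 12.4 against 18.5 in MEF, 13.3 against 16.3 in CAF and 11.3 against 15.2 in wound fibroblasts, and the part of this in the retention was not tested.

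**Figure D5:**
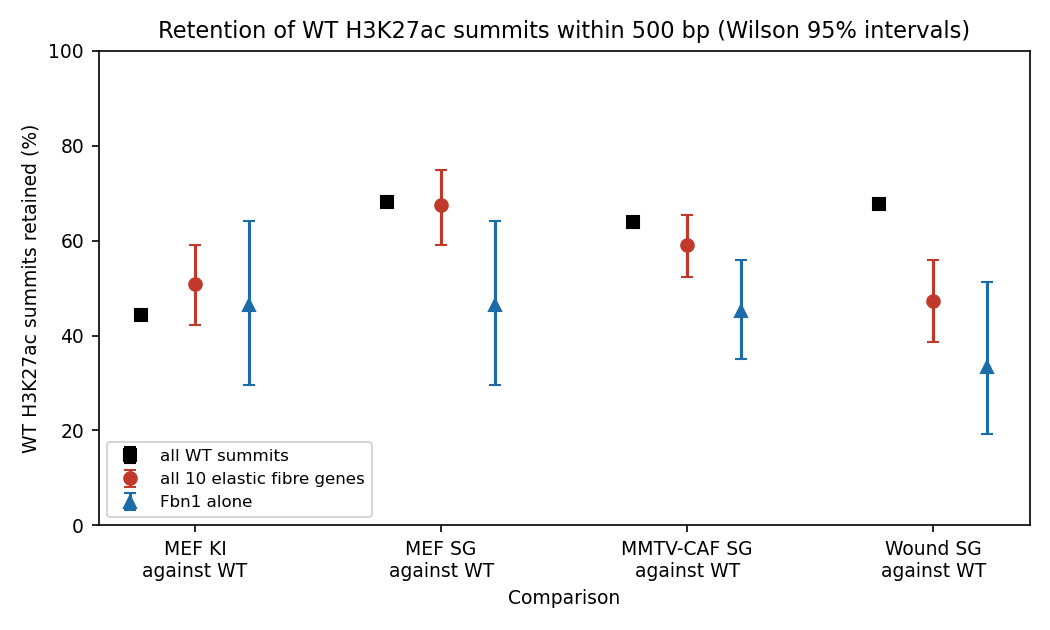
Percentage of WT H3K27ac summits with a summit within 500 bp in the mutant list, for all WT summits (squares), the 10 genes (circles) and Fbn1 alone (triangles), with Wilson 95% intervals. In wound fibroblasts the 10 genes stand at 47.2% and all summits at 67.7%, whereas in both MEF comparisons the interval of the 10 genes includes the value of all summits.

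Sites were also chained across lists. The 10 windows held 355 H3K27ac sites, of which 32 were present in all 7 lists and 147 in 1 list only. Of 59 sites present in all 3 WT lists, 32 were in all 4 mutant lists (54.2%, against 57.6% of 18547 such sites in the genome). They were kept unevenly: 10 of 11 at Efemp2, 7 of 10 at Ltbp1, 5 of 8 at Ltbp2 and 3 of 3 at Lox. The counts were 5 of 16 at Fbn1, 1 of 5 at Fbln2, 1 of 3 at Fbln5 and 0 of 3 at Eln. The 3 Eln sites lay 58845 to 71375 bp downstream of its TSS. They were missing from MEF KI alone, and all 3 were listed in MEF SG, CAF SG and wound SG. Of the 16 Fbn1 sites, 11 were listed in MEF KI, 10 in MEF SG, 14 in CAF SG and 7 in wound SG, where 69.4%, 92.0%, 91.1% and 88.6% of such sites in the genome were. One site, at Fbln2, was present in every WT list and in no mutant list, as were 96 sites in the genome (0.518%).

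A further 30 genes of elastic fibre and microfibril assembly gave the wider setting. Of these, 8 held PRRX1 summits in all 3 types: Efemp1 (fibulin-3), Mfap5 (a microfibril glycoprotein), Emilin1 (a microfibril-associated glycoprotein), the lysyl oxidase family members Loxl1 and Loxl2, Thsd4 (which binds fibrillin), Tgfb1 and Bgn (biglycan). That share, 8 of 30, stood beside 2 of 9 for the main set without Fbn1 and 7.73% of all genes. H3K4me3 marked 13 of the 30 in every list, and 6 of the 10, where 39.7% of all genes were. Mfap4, a further microfibril-associated glycoprotein, was marked in none.

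Between WT and mutant lists, 10 of the 23 marked in MEF WT were not marked in KI, where 22.6% of all such genes were not: Ltbp4, Fbln7, Mfap2, Loxl1, Loxl2, Loxl4, Adamts17, Bgn, Dcn and Fn1. Fbln7 and Mfap2 were also unmarked in MEF SG (2 of 23, against 4.04%). Loxl1, an oxidase of elastin, had 5094 bp in MEF WT, none over a TSS in KI and 4604 bp in SG. Fn1 (fibronectin) had 4901 bp, none over a TSS and 3583 bp. Regions that missed the most upstream TSS in MEF KI lay 54 bp away at Bgn, 101 bp at Loxl1 and 106 bp at Fn1. At Loxl4 the distance was 122 bp, at Ltbp4 930 bp and at the others listed at least 23154 bp. In CAF 0 of the 25 marked in WT were marked in WT only (2.67% of all such genes). Adamtsl2, a microfibril-binding protein, had a region over a TSS in SG only (1514 bp), but in CAF WT a region lay 16 bp from its most upstream TSS. In wound fibroblasts Hmcn1 (295 bp) and Mfap5 (867 bp), 2 of 26, were marked in WT only (2.43% of all such genes), and Ltbp3 (3522 bp) in SG only. In wound WT, however, a region lay 137 bp from the most upstream TSS of Ltbp3. In wound SG the nearest region to Hmcn1 and Mfap5 was at least 13725 bp away. Retention of their WT H3K27ac summits was 44.9% (MEF KI), 67.5% (MEF SG), 65.0% (CAF SG) and 67.7% (wound SG), so the low wound share of the 10 genes was not seen in this list, and the difference between the lists was not tested.

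Genes with H3K4me3 widths most like those of Fbn1 were sought over the 7 lists among 8883 genes marked in all of them, by Euclidean distance of the log2 widths. Gm9913 stood at 0.00 because its TSS lies under the same region. H13 (0.32), Ctsb (0.37), Ost4 (0.38) and Cox8a (0.38) followed, and each was likewise widest in CAF.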

How the data were processed

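Peak lists of 17 samples were used, grouped by sample title, with 1 list per group. The 7 inputs were not used here. Per the study's methods, the authors used Trimmomatic for trimming, Bowtie for alignment to mm9 and MACS2 with input as control, calling narrow peaks for H3K27ac and PRRX1 and broad regions for H3K4me3. The methods state a p cutoff equal to a −log10 p of 5 for narrow peaks, which the H3K27ac lists keep, whereas the PRRX1 lists go down to 3 and so do not match it. For the PRRX1 ChIPs the study also names IgG as a control, and its part in the peak calls is not stated. Pooling of duplicate PRRX1 ChIPs is not stated. As deposited, a summit of H3K27ac or PRRX1 is 1 bp long and carries its −log10 p-value. The deposited H3K4me3 lists hold regions with a fold enrichment (a ratio over input), a −log10 p and a −log10 q, and also a score, 10 times the −log10 q as deposited, which was not used. A called list moves with depth and threshold, so an unlisted peak may lie under the threshold. KI denotes an insertion and SG a deletion, and both are called mutant.

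Genes, TSSs, exons and UTRs came from GENCODE vM1 on NCBIM37, the same build as mm9, and 0 intervals lay beyond a chromosome end. Summits within 500 bp were matched. H3K4me3 widths were compared as log2 ratios, called at 1.5-fold. Wilson 95% intervals cover counting error over peaks only. The genes, the further 30 genes, the markers and the motifs were chosen with earlier results of these data known. Named genes were all 10, and of the 30 those with PRRX1 in all 3 types, without H3K4me3 in any list, or with H3K4me3 on 1 side of a comparison only. The code was tested on simulated lists. The tools were pysam 0.24.0, matplotlib 3.10.9, scipy 1.17.1, pandas 2.3.3 and numpy 2.4.6 under Python 3.11.15. Alternatives were a −log10 p of at least 10 (for PRRX1 also 5), lists of equal size, other windows and distances, and, added after the data were seen, the 10 genes without Fbn1 and covered bases in place of widths.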

Additional observations from a re-analysis of the deposited data

Results flagged for a closer look

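At Eln and Ltbp2, relative to the median of all genes, H3K4me3 was narrower or lost in both mutant MEF lists and was gained, or wider by at least 1.5-fold, in wound SG. Fbln1, Fbln2 and Efemp2 had the same signs with wound shifts of 0.07 to 0.13 on the log2 scale, under that size. Ltbp1 had them too (0.14 in wound SG), but its MEF KI value sets different promoters against each other, and in bases covered within 5 kb of the most upstream TSS it stood at 0.11 in MEF KI (-0.39 over all genes) and 0.07 in wound SG (0.18 over all genes), so that both signs turned. Of the 11748 genes with a value in all of these comparisons, 3.04% met the description given for Eln and Ltbp2 and 17.8% had these signs at any size, against 2 and 6 of the 10 genes by the widest region. Each culture is a single list and the difference was not tested. Eln had 825 bp over its TSS in MEF WT and no region in MEF KI or MEF SG, whereas in wound fibroblasts it had none in WT and 247 bp in SG, with a −log10 p of 3.63. Ltbp2 had 3733 bp in MEF WT, none in KI and 2173 bp in SG, whereas in wound fibroblasts it had 1406 bp in WT and 4082 bp in SG. In bases covered within 5 kb of the Ltbp2 TSS the wound values were 2340 and 5882 bp, the same direction. Over all genes the wound SG regions were wider (median log2 ratio 0.18) and the MEF regions narrower (-0.33 in KI and -0.09 in SG).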

How the results depend on the processing

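Of 140 alternative values, 98 stayed within 1.5 times the reported count, within the reported 95% interval or, for a median width change, within 0.25 on the log2 scale, and 42 moved further. Less that of all genes, the median width change was -0.10 in both MEF KI and CAF SG, and 0.03 and 0.01 when counted as covered bases. Replicates could not be paired because each group has 1 list. With the fibroblast types taken as 3 WT and SG pairs, an exact permutation test could give no two-sided p under 0.25, and it was not run. With H3K4me3 regions of a −log10 p of at least 10, 2 genes were marked in MEF KI instead of 7 (25.8% of all genes). The other H3K4me3 values, covered bases included, stayed within those limits. With H3K27ac lists of equal size the windows held 86, 100 and 81 summits in the MEF lists (WT, KI, SG) and 102 and 111 in the CAF pair (WT, SG), so that the order turned between MEF WT and KI and in CAF, and 104 and 81 in the wound pair (WT, SG), where SG fell further below WT. At a −log10 p of at least 10 it also turned in CAF (168 and 171) and in wound fibroblasts (89 and 94). With 10 kb on each side they held 83, 60 and 85 in the MEF lists, 144 and 146 in CAF, SG standing above WT in both, and 88 and 75 in wound fibroblasts, SG standing below WT. Within 50 kb of the TSS they held 75, 66 and 79 in the MEF lists, 116 and 109 in CAF, and 73 and 66 in wound fibroblasts. Without Fbn1 the totals were 104, 86 and 110 in MEF, 138 and 143 in CAF, and 95 and 107 in wound fibroblasts, so that each SG list stood above its WT. With the share of all WT summits in brackets, retention within 250 bp was 48.6% in CAF SG (55.4%), and within 1 kb 81.1% in MEF SG (79.7%), 70.7% in CAF SG (75.2%) and 67.2% in wound SG (83.9%). In MEF KI it was 37.5% with a −log10 p of at least 10 (36.5%) and 64.0% with lists of equal size (58.4%). In CAF SG it was 66.7% with lists of equal size (64.4%) and 67.4% without Fbn1 (63.9%), so that the CAF genes turned from below all summits to above. MEF SG turned likewise within 1 kb and without Fbn1 (73.1%, against 68.2%). The wound share stood under that of all WT summits in each of the 6 alternatives run. With PRRX1 summits of at least 10, MEF held 1 summit at 1 gene, CAF 7 at 5 genes and wound fibroblasts 4 at 3 genes, 1 gene held all types, and 1 gene a shared site. With PRRX1 lists of equal size CAF held 12 summits and wound fibroblasts 11 at 4 genes, and within 50 kb of the TSS the 3 types held 3, 20 and 10. H3K27ac lay within 250 bp of 27% of PRRX1 summits in CAF (21.2% of all) and 11.1% in wound fibroblasts (16.4%), and within 1 kb of 73.0% in CAF (61.2%) and 38.9% in wound fibroblasts (44.1%), so that the wound share, above all summits at 500 bp, lay below them at both other distances. The cause of these shifts was not tested. Depth is unknown, so a peak that is not listed may be under the threshold.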

Other observations

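WT H3K27ac summits at the 10 genes were also compared between fibroblast types, within 500 bp. Of 222 summits in CAF WT, 39.6% (33.4% to 46.2%) had a summit in MEF WT and 28.4% (22.9% to 34.6%) in wound WT, against 52.1% and 41.3% of all CAF summits. Of 125 summits in wound WT, 60.0% had one in MEF WT and 52.0% in CAF WT, against 69.6% and 67.7%. Of 132 summits in MEF WT, 68.9% had one in CAF WT and 57.6% in wound WT, against 63.3% and 51.8%. Of the 108 H3K27ac sites at Fbn1, 63 were listed, among the WT lists, in CAF alone, and 2 and 6 in MEF and wound fibroblasts alone.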
